A study of Mus musculus with 30 samples.

Results

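Gene expression with MePipHCA, a synthetic mimic of the sterol desmosterol, was compared with that under T0901317, a synthetic agonist of the liver X receptors (LXR), in primary mouse hepatocytes. Each ligand was given at 1 uM and each group had 2 libraries, so 4 of the 30 libraries of the series were compared, chosen by the cell type and treatment in their labels. The series sequenced polyadenylated RNA from cultured primary hepatocytes and from peritoneal macrophages elicited by thioglycollate, and it asked how ligands related to desmosterol act on the LXR and SREBP pathways of each cell type. Hepatocytes with 1 uM GW3965, a further synthetic LXR agonist, and hepatocytes with vehicle (DMSO or ethanol) had 2 libraries each and gave context. Hepatocytes with DMHCA at 1 uM or desmosterol at 10 uM, 2 libraries each, were not compared but entered the scaling and spread of the hepatocyte fits. Macrophages had 3 libraries each with MePipHCA and T0901317 at 1 uM and 3 with vehicle. Macrophages with GW3965, DMHCA or desmosterol, 3 libraries each, entered the macrophage fits in the same way. All groups, vehicle included, had first spent 24 h under sterol depletion, in which the medium carried 10% lipid-deficient serum, mevastatin at 10 uM and mevalonate at 50 uM, and were then kept there with the ligand for 18 to 20 h. Mevastatin is a statin, which blocks sterol synthesis, so every group was a culture with its own sterol synthesis restrained. The labels name Hepatozyme with 10% FBS as the medium of hepatocytes and RPMI with 10% FBS as that of macrophages. Strain, sex and age of the mice, and whether replicates came from separate animals or cultures, were not given in the sources used here. The p-values therefore reflect the spread among these libraries alone, and that spread may be technical.

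LXRs are nuclear receptors that are switched on by oxidised sterols and by desmosterol. They raise genes that export cholesterol from the cell, such as Abca1 and Abcg1, and in liver also Srebf1, whose product SREBP-1c drives the synthesis of fatty acids. The related factor SREBP-2 raises the enzymes of cholesterol synthesis, and both SREBPs are held in the endoplasmic reticulum with the help of INSIG proteins when sterols are plentiful.

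The promoters of 4 genes that the results turn on are printed here from RefSeq (GRCm38.p6, the assembly behind mm10), each from 250 bases before to 50 bases after a transcription start. Abca1 (chr4:53159846-53160145, minus strand), Srebf1 (chr11:60210422-60210721, minus strand, 1 of 3 starts listed) and Fasn (chr11:120824498-120824797, minus strand) are shown because each holds the LXR element, a direct repeat with 4 bases between its parts, searched on both strands as GGTNA, 5 bases of any kind and GGTCA. Capitals mark that match, which lies on the opposite strand and so reads as its reverse complement. It spans positions −67 to −53 from the start in Abca1, −182 to −168 in Srebf1 and −225 to −211 in Fasn. Hmgcs1 (chr13:119690101-119690400, plus strand), which makes HMG-CoA, is shown for its sterol regulatory element, searched on both strands as TCACNCCAC and found at −137 to −129, in capitals.
Abca1: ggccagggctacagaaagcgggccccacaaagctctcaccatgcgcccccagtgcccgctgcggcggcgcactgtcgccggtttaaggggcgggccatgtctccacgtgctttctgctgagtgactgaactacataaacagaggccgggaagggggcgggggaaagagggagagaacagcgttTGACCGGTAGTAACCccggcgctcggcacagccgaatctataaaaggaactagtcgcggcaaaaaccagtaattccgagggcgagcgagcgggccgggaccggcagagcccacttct
Srebf1: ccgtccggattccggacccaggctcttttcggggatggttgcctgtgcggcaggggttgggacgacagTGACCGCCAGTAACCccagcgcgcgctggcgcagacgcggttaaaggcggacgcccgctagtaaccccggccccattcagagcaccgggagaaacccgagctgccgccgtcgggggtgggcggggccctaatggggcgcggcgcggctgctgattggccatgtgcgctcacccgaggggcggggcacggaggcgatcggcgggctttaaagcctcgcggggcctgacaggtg
Fasn: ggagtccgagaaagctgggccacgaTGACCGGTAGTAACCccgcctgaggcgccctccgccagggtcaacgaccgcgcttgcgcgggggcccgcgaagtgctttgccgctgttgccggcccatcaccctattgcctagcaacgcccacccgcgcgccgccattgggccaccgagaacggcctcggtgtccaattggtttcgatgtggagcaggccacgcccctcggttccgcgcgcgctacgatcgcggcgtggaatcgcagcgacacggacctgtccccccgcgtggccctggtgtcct
Hmgcs1: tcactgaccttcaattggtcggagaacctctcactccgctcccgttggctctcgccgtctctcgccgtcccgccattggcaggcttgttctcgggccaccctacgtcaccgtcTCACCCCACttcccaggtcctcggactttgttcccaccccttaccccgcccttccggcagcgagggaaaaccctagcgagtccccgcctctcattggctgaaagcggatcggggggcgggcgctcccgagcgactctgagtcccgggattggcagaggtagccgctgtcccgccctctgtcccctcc
The marked letters were identical in Abca1 and Fasn, and no marked run holds the letters CCAAT on either strand. Among all 32851 listed promoters, 0.207% held the LXR element and 1.24% the sterol element. Counted per gene, as for the lists below, these were 0.181% and 1.5% of 9940 tested genes with a listed promoter. Of the genes described below, the LXR element was found in 1 of 11 LXR targets with a listed promoter, in 2 of 14 members of the fatty acid synthesis list and in 0 of 16 enzymes of cholesterol synthesis. Hmgcs1 was 1 of 16 such enzymes with the sterol element. The letters CCAAT, the core of the site of NF-Y, a partner of SREBP, were on a strand in 15 of the 16. They were in 43% of the tested genes with a listed promoter and in 37.4% of all promoters. A match describes letters in this window and is not evidence of binding.

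The MePipHCA libraries held 11.96 and 18.63 M exon counts, the T0901317 libraries 14.22 and 11.05, the GW3965 libraries 14.48 and 17.77 and the vehicle libraries 12.85 and 6.63, in the order of replicates 1 and 2. Levels below are counts per M counts of the TMM-scaled library (CPM), and changes are log2 fold changes ± SE of MePipHCA over T0901317 from edgeR's quasi-likelihood test with Benjamini-Hochberg adjustment over all 13176 genes tested. Alb, albumin, the main plasma protein of hepatocytes, stood at 22758 and 19662 CPM with MePipHCA and at 20934 and 21645 CPM with T0901317. The 9 hepatocyte markers summed to 27990 and 24950 CPM with MePipHCA and 27850 and 29670 CPM with T0901317. Of the 9, 8 had a negative change (median −0.19), and 2 were called lower with MePipHCA, against 2.91% of all genes. These were Apoa1 (−0.58 ± 0.08, adjusted p = 1.02e-05) and the urea cycle enzyme Cps1 (−0.77 ± 0.23, adjusted p = 0.0381). The vehicle libraries of Cps1 stood apart, at 166 and 69.8 CPM. Against vehicle, 3 of the 9 markers were lower with MePipHCA, beside 1.38% of all genes, and 0 with T0901317. The 9 macrophage and Kupffer cell markers summed to 272 and 241 CPM with MePipHCA and 314 and 256 CPM with T0901317, mostly Cd68, and the 7 endothelial markers to 53.3 and 44.5 CPM with MePipHCA and 45.3 and 49.7 CPM with T0901317, with no call in either list. Markers of mesothelial cells, B cells, T and NK cells and neutrophils were at or near 0, and 9 stellate cell and fibroblast markers summed to 2.73 and 3.18 CPM with MePipHCA and 2.11 and 2.83 CPM with T0901317. In bulk RNA, fewer cells of a type and less RNA per cell cannot be told apart.

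MePipHCA left 414 genes higher (3.14% of genes tested) and 383 lower (2.91%) than T0901317, 797 in all (6.05%), and the median over all genes was −0.01. Most of these differences were small: the called genes had a median of 0.45 among the higher and −0.53 among the lower, and at least 2-fold differences numbered 29 higher (0.22%) and 55 lower (0.417%). Abcg1, Scd2, Abca1, Pnpla3 and Scd1, which act in cholesterol export, in the desaturation of fatty acids and on lipid droplets, were the most lowered of the genes named by rule. The libraries of the groups did not overlap for 49.6% of genes. Counts dropped when any library was left out, to 133 higher and 165 lower without MePipHCA replicate 1, 141 and 175 without MePipHCA replicate 2, 226 and 256 without T0901317 replicate 1, and 165 and 202 without T0901317 replicate 2.

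**Figure D1:**
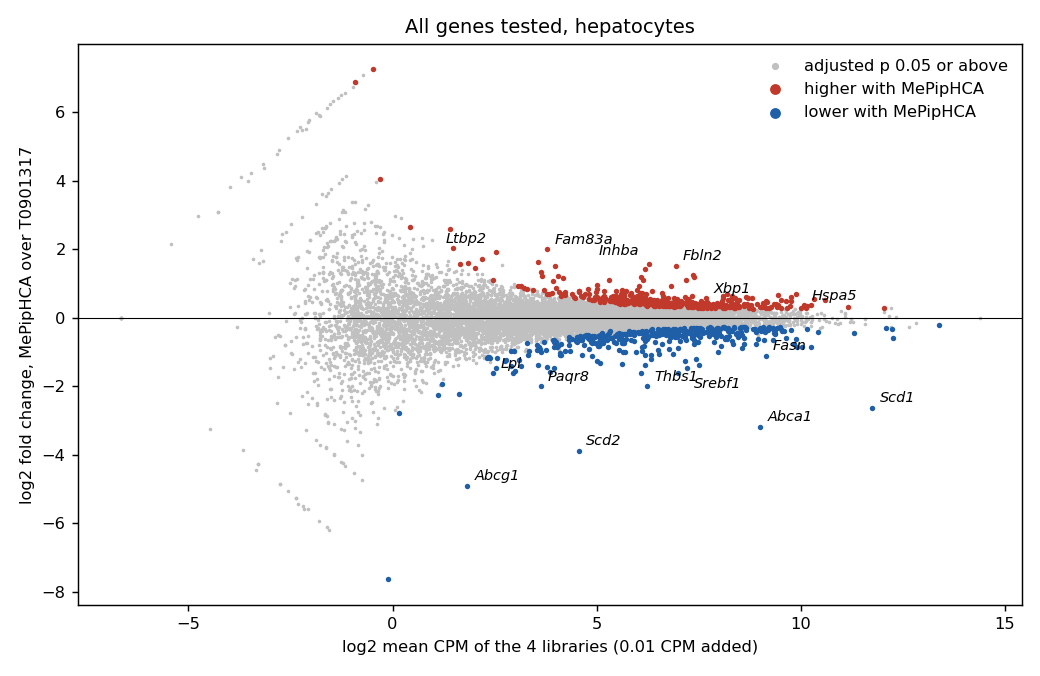
Log2 fold change of MePipHCA over T0901317 (y axis) against log2 mean CPM of the 4 libraries with 0.01 CPM added (x axis), 1 point per gene tested, red for the 414 higher and blue for the 383 lower genes. Abcg1, Scd2, Abca1 and Scd1 stand below most genes of their level, and the widest spread lies among genes with few counts.

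The LXR targets asked whether the ligands drive the receptor's own genes alike in hepatocytes, and the cholesterol exporters differed most. Abca1 (NM_013454, chr4:53030789-53159895), the pump that loads cholesterol onto apolipoprotein A1, stood at 100.2 and 103 CPM with MePipHCA, at 856 and 996 CPM with T0901317 and at 190 and 158 CPM with vehicle. MePipHCA libraries were the lowest and T0901317 libraries the highest, with no overlap among the groups. The difference was 9.13-fold (−3.19 ± 0.10, adjusted p = 3.77e-20). Abcg1 (NM_009593, chr17:31057694-31117981), which passes cholesterol to mature HDL, stood at 0.0827 and 0.318 CPM with MePipHCA, 7.45 and 6.30 CPM with T0901317 and 0.311 and 0.302 CPM with vehicle. It had 7 counts with MePipHCA and 175 with T0901317, and the libraries of these ligands did not overlap (−4.91 ± 0.66, adjusted p = 1.17e-05). Vehicle libraries lay within the range of the MePipHCA libraries.

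Lpcat3, which places polyunsaturated fatty acids into phospholipids, had 261 and 267 CPM with MePipHCA, 470 and 507 CPM with T0901317 and 272 and 284 CPM with vehicle. T0901317 libraries lay above those of MePipHCA and vehicle, and the difference between the ligands was 1.85-fold (−0.89 ± 0.08, adjusted p = 8.51e-09). Lpl, the lipase that frees fatty acids from lipoproteins, was scarce, at 3.56 and 1.91 CPM with MePipHCA and 8.43 and 8.12 CPM with T0901317 (−1.63 ± 0.36, adjusted p = 0.00535), and its call was lost without MePipHCA replicate 2 (adjusted p = 0.154). Mylip, a ubiquitin ligase of lipoprotein uptake, stood at 0.248 and 1.11 CPM with MePipHCA and 1.335 and 3.10 CPM with T0901317, which did not pass (−1.61, 95% interval −3.25 to 0.03, adjusted p = 0.269). Pltp, which moves phospholipids between lipoproteins, overlapped between the groups at 9.10 and 5.88 CPM against 7.94 and 8.67 CPM (−0.16, 95% interval −0.78 to 0.45, adjusted p = 0.836). Of 15 LXR targets tested 5 were lower, against 2.91% of all genes, and none was higher, with a median of −0.41. The fifth was Apoc2, a cofactor of lipoprotein lipase. Apoe, at 2380 and 2377 CPM with MePipHCA and 2563 and 2666 CPM with T0901317, was among the 10 that did not pass (adjusted p = 0.297), as was the sterol exporter Abcg5 (−1.33 ± 0.42, adjusted p = 0.0559).

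**Figure D2:**
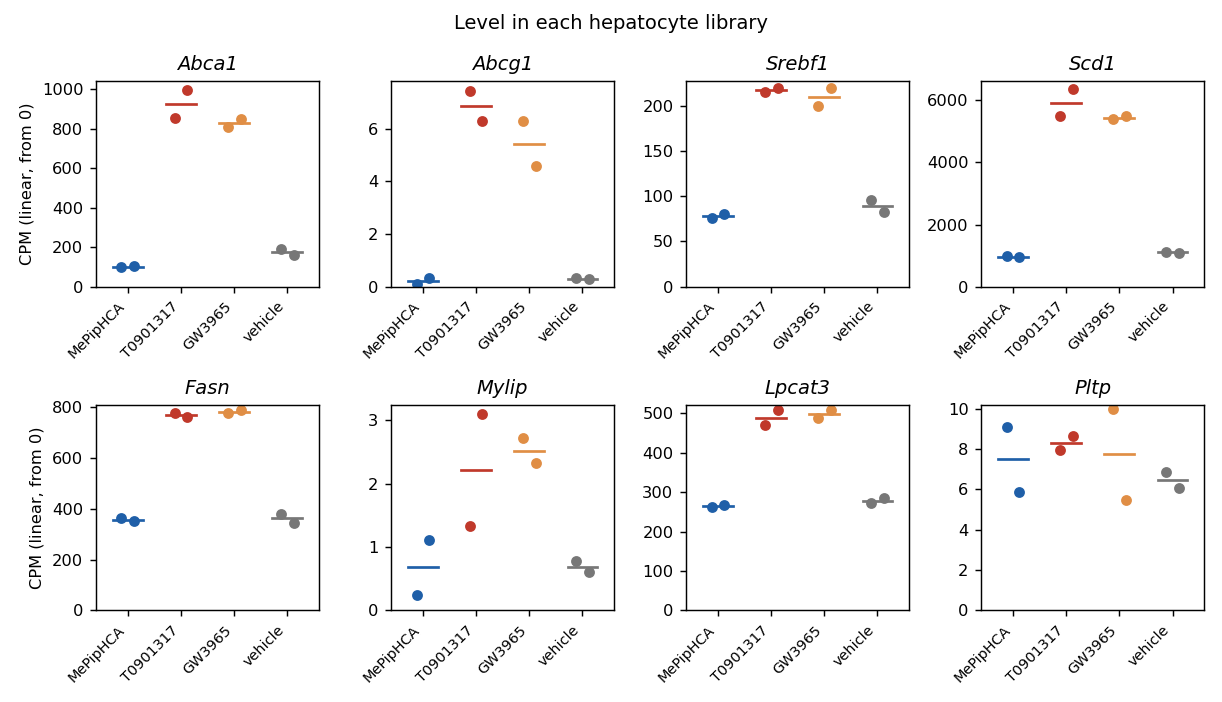
CPM (linear y axis from 0) of 8 genes named in every comparison, 1 panel per gene, with 1 point per hepatocyte library and a bar at the mean of each group of 2. Abca1, Abcg1, Srebf1, Scd1, Fasn and Lpcat3 are high with T0901317 and GW3965 and low with MePipHCA and vehicle, while Pltp overlaps between the groups.

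Transcripts of most enzymes of fatty acid synthesis were lower with MePipHCA. Srebf1 (NM_011480, chr11:60199084-60220627), which encodes SREBP-1, stood at 75.6 and 80.3 CPM with MePipHCA, 215 and 220.1 CPM with T0901317 and 96.2 and 82.8 CPM with vehicle, a 2.79-fold difference between the ligands (−1.48 ± 0.10, adjusted p = 4.71e-11). Its counts do not separate the SREBP-1a and SREBP-1c starts. Scd1 (NM_009127, chr19:44394450-44407709), the desaturase that makes oleate, had 971 and 944 CPM with MePipHCA, 5480 and 6348 CPM with T0901317 and 1112 and 1093 CPM with vehicle. That was a 6.18-fold difference (−2.63 ± 0.08, adjusted p = 3.77e-20) between the ligands, and GW3965 libraries stood with those of T0901317 at 5385 and 5486 CPM. Fasn (NM_007988, chr11:120805958-120824547), the synthase of palmitate, had 362.5 and 352 CPM with MePipHCA, 779 and 761 CPM with T0901317 and 381 and 345 CPM with vehicle (−1.11 ± 0.08, adjusted p = 4.71e-11).

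Scd2, the related desaturase that is scarce in adult liver, stood at 3.47 and 2.59 CPM with MePipHCA, 37.8 and 50.4 CPM with T0901317 and 9.96 and 10.6 CPM with vehicle. MePipHCA libraries were the lowest and T0901317 libraries the highest without overlap, a 14.7-fold difference (−3.88 ± 0.22, adjusted p = 6.13e-13). Of 17 genes tested of this pathway, Srebf1 among them, 14 were lower, against 2.91% of all genes, and none was higher, with a median of −0.68. The other lower members included Acss2 and Acly, which make acetyl-CoA (−1.35 ± 0.13 and −0.65 ± 0.08), Acacb, an acetyl-CoA carboxylase (−1.09 ± 0.16), and the desaturase Fads2 (−1.27 ± 0.09), with Elovl5, an elongase, at the small end (−0.31 ± 0.09). Pnpla3, a lipase of lipid droplets, had 0.0827 and 0.424 CPM with MePipHCA and 1.97 and 1.92 CPM with T0901317 (−2.77 ± 0.77, adjusted p = 0.028). Its call was lost without MePipHCA replicate 1 (0.258) or 2 (0.0525), without T0901317 replicate 1 (0.0856) or 2 (0.0845) and in a fit of the 4 libraries alone (0.0628). The members that did not pass were Mlxipl, the carbohydrate response factor ChREBP (0.14 ± 0.11), the citrate carrier Slc25a1 (−0.22 ± 0.09) and malic enzyme Me1 (−0.15 ± 0.10).

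Transcripts of most enzymes of cholesterol synthesis were lower with MePipHCA, from the first steps to the last. The 10 genes of the mevalonate arm summed to 1091 and 1170 CPM with MePipHCA, 1940 and 1950 CPM with T0901317 and 1947 and 2100 CPM with vehicle. Summed levels of the 11 enzymes after squalene were 1770 and 1827 CPM with MePipHCA, 2615 and 2582 CPM with T0901317 and 2871 and 2749 CPM with vehicle. MePipHCA libraries thus had the lowest sums in both arms. Over all genes 2.91% were lower with MePipHCA. In the mevalonate arm 8 of 10 genes were lower (median −0.76) and after squalene 10 of 11 (median −0.58), and none was higher. Those that did not pass were the isomerase Idi1 (−0.23 ± 0.39), Ggps1, which makes a lipid anchor of proteins (−0.05 ± 0.21), and the sterol isomerase Ebp (−0.19 ± 0.13).

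Hmgcs1, the synthase of HMG-CoA, stood at 637 and 697 CPM with MePipHCA, 1120 and 1173 CPM with T0901317 and 1226 and 1377 CPM with vehicle (−0.78 ± 0.08, adjusted p = 6.8e-08). Both MePipHCA libraries lay below those of T0901317 and vehicle. The largest differences in the mevalonate arm were those of the phosphomevalonate kinase Pmvk (−1.33 ± 0.13), the decarboxylase Mvd (−1.27 ± 0.15) and the thiolase Acat2 (−1.21 ± 0.11), with adjusted p of at most 1.33e-06. After squalene they were those of the cyclase Lss at 52.0 and 51.6 CPM against 112.5 and 108 CPM (−1.09 ± 0.10), of Dhcr7, which makes cholesterol from 7-dehydrocholesterol (−0.95 ± 0.10), and of the dehydrogenase Nsdhl (−0.66 ± 0.09).

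**Figure D3:**
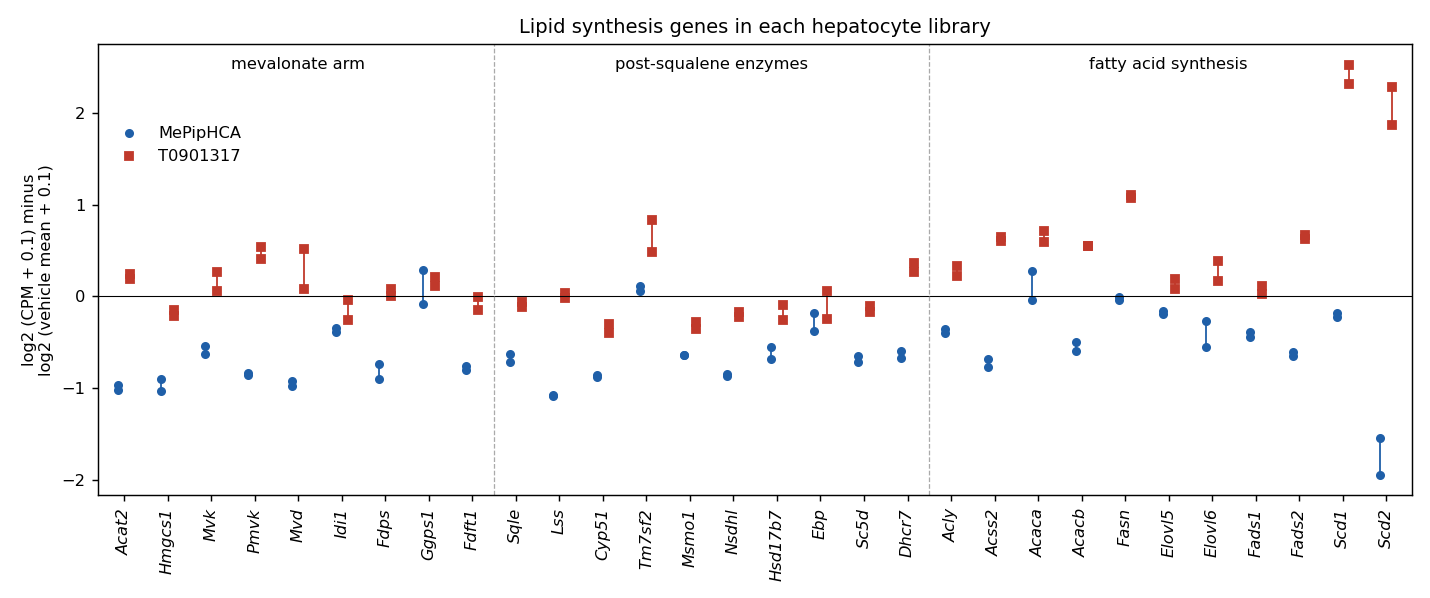
Level of 30 lipid synthesis genes in each MePipHCA and T0901317 library as log2 (CPM + 0.1) minus log2 of the vehicle mean + 0.1 (y axis), in pathway order (x axis), where lines join the 2 libraries of a group. MePipHCA points lie below 0 for most cholesterol enzymes, where T0901317 points lie near 0, and T0901317 points lie above 0 for Fasn, Scd1 and Scd2.

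Other genes of sterol balance were lower as well. Insig1, the sterol-dependent anchor of SREBPs, stood at 58.6 and 67.1 CPM with MePipHCA, 188.5 and 197 CPM with T0901317 and 129 and 130.1 CPM with vehicle, a 3.06-fold difference between the ligands (−1.61 ± 0.10, adjusted p = 1.65e-12). MePipHCA libraries were lowest and T0901317 libraries highest, without overlap. Of 7 other SREBP-2 targets 4 were lower (median −0.55), against 2.91% of all genes. Insig1 and the sterol carrier Stard4 (−0.57 ± 0.14, adjusted p = 0.0139) were among them. The Stard4 call was lost without MePipHCA replicate 1 (0.0789) or 2 (0.142) or T0901317 replicate 2 (0.104).

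In triglyceride synthesis and lipid droplets 3 of 15 genes were lower, against 2.91% of all genes, with a median of −0.13. Lpin1, the phosphatase that makes diacylglycerol, had 34.6 and 32.4 CPM with MePipHCA, 105 and 99.8 CPM with T0901317 and 75.8 and 64.7 CPM with vehicle (−1.62 ± 0.13, adjusted p = 7.4e-10). Gpam, which adds the first fatty acid to glycerol phosphate, stood at 55.9 and 62.4 CPM with MePipHCA, 117 and 133 CPM with T0901317 and 101 and 93.9 CPM with vehicle (−1.07 ± 0.10, adjusted p = 2e-08). Hilpda, a droplet protein that restrains lipolysis, was lower by a small amount (−0.53 ± 0.14, adjusted p = 0.0169), a call lost without any 1 of the 4 libraries (0.133 and 0.108 without MePipHCA replicates 1 and 2, 0.109 and 0.0629 without T0901317 replicates 1 and 2). The acyltransferases Dgat1 (0.01 ± 0.17) and Dgat2 (0.12 ± 0.11), which complete triglycerides, and the droplet coat Plin2 (−0.19 ± 0.08) did not pass. Of 14 genes of apolipoproteins and lipoprotein secretion 1 was lower, with a median of −0.19 and a range of 1 to 4 over the alternatives, 4 without the filter on low counts. This was Apoa1, the main protein of HDL, at 3916 and 3922 CPM with MePipHCA, 5315 and 6402 CPM with T0901317 and 4903 and 4691 CPM with vehicle (−0.58 ± 0.08, adjusted p = 1.02e-05). Apob, the protein of VLDL, was at 5227 and 5020 CPM against 4985 and 5209 CPM (0.01 ± 0.06, adjusted p = 0.974).

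In the lists of other liver nuclear receptors most members did not pass. Over all genes 3.14% were higher and 2.91% lower. The share lower was above this for PXR and CAR targets, while the bile acid and PPAR-alpha lists had at most 1 call in a direction. Of 15 targets of PXR and CAR, receptors of foreign compounds, 3 were lower (median −0.15; 1 to 4 over the alternatives, 1 without MePipHCA replicate 1 or T0901317 replicate 2): the epoxide hydrolase Ephx1 (−0.50 ± 0.09, adjusted p = 0.000815), the exporter Abcc3 (−0.35 ± 0.08, adjusted p = 0.00666) and Nr1i2, the gene of PXR itself (−0.97 ± 0.28, adjusted p = 0.0391). Abcc3 lost its call without MePipHCA replicate 1 (0.145) or T0901317 replicate 2 (0.158), and Nr1i2 without MePipHCA replicate 1 (0.283) or 2 (0.0889) or T0901317 replicate 1 (0.111) or 2 (0.151). The induced cytochromes Cyp3a11 (93.9 and 113 CPM with MePipHCA, 110 and 103 CPM with T0901317) and Cyp2b10 (133 and 116 CPM against 109 and 108 CPM) did not pass. Of 15 genes of bile acid synthesis, transport and FXR 1 was lower (median −0.12), Abcb4, which moves phosphatidylcholine into bile (−0.58 ± 0.13, adjusted p = 0.0049), lost without MePipHCA replicate 1 (0.066) or T0901317 replicate 2 (0.0838). Of 22 genes of PPAR-alpha and fatty acid oxidation 1 was higher and 1 lower (median −0.08). Ehhadh, the peroxisomal bifunctional enzyme, averaged 26.7 ± 2.39 CPM with MePipHCA and 44.2 ± 0.332 CPM with T0901317 (SD, n = 2 each), without overlap (−0.73 ± 0.13, adjusted p = 0.000704). Creb3l3, a membrane-bound factor of fasting metabolism, was higher (0.35 ± 0.10, adjusted p = 0.0339), a call lost without MePipHCA replicate 1 (0.286) or 2 (0.108) or T0901317 replicate 1 (0.222) or 2 (0.0975).

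Of the stress lists 1 had no call by edgeR, and the other had calls above the share of all genes (3.14% higher, 2.91% lower). No gene of 17 in the ATF4 and CHOP response, which answers amino acid shortage and endoplasmic reticulum stress, passed edgeR's test (median 0.08), while 4 had an unadjusted p below 0.05 and DESeq2 called 1, as lower. Over the alternatives 0 to 1 were higher and 0 to 2 lower. Ddit3, which encodes CHOP, had 57.2 and 35.5 CPM with MePipHCA and overlapped with T0901317 at 39.8 and 28.5 CPM (0.42 ± 0.18, adjusted p = 0.194). Of 11 genes of endoplasmic reticulum chaperones and the unfolded protein response 3 were higher and 1 lower, with a median of 0.04, and 1 was higher and none lower without MePipHCA replicate 1 or T0901317 replicate 2. Xbp1, a factor of that response, had 257 and 235 CPM with MePipHCA, 160 and 172 CPM with T0901317 and 190.1 and 170 CPM with vehicle (0.57 ± 0.09, adjusted p = 0.000132). Hspa5, the chaperone BiP, had 1258 and 1188 CPM against 995 and 905 CPM (0.36 ± 0.07, adjusted p = 0.00239), and Hsp90b1, a chaperone too, was higher by 0.32 ± 0.08 (adjusted p = 0.0163). The Hspa5 call was lost without MePipHCA replicate 1 (0.0734) or T0901317 replicate 2 (0.0702). Herpud1, which serves the disposal of misfolded proteins, was lower (−0.51 ± 0.11, adjusted p = 0.00552), lost without MePipHCA replicate 1 (0.193) or T0901317 replicate 2 (0.102).

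Antioxidant genes of NRF2, the factor of the response to oxidants, were lower in 6 of 9 cases (median −0.60), against 2.91% of all genes. Hmox1, which breaks down haem, had 704 and 665 CPM with MePipHCA, 1239 and 1233 CPM with T0901317 and 987 and 1036 CPM with vehicle (−0.85 ± 0.08, adjusted p = 1.21e-08). Its MePipHCA libraries were lowest and its T0901317 libraries highest. Osgin1, an oxidative stress growth inhibitor, had 745 CPM in both MePipHCA libraries, against 1194 and 1104 CPM with T0901317 and 790 and 815.5 CPM with vehicle (−0.62 ± 0.09, adjusted p = 2.15e-05). Gclc, which limits glutathione synthesis, was lower by −0.62 ± 0.11, Srxn1 by −0.60 ± 0.10 and Txnrd1 by −0.31 ± 0.08 on the log2 scale. G6pdx, which supplies NADPH, was lower as well (−0.63 ± 0.13, adjusted p = 0.00242), lost without MePipHCA replicate 2 (0.0862) or T0901317 replicate 2 (0.226).

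Among 15 acute phase and inflammatory genes 3 were lower (median −0.12), and 1 to 5 over the alternatives, 1 without MePipHCA replicate 2. Over all genes 2.91% were lower, the share that these and the next counts stand beside. The adhesion molecule Icam1 stood at 55.6 and 55.1 CPM with MePipHCA and 86.2 and 91.8 CPM with T0901317 (−0.69 ± 0.11, adjusted p = 0.000139). The chemokine Ccl2 (−0.64 ± 0.14, adjusted p = 0.00469) lost its call without MePipHCA replicate 2 (0.198) or T0901317 replicate 2 (0.0762), and haptoglobin, Hp (−0.52 ± 0.10, adjusted p = 0.0018), without MePipHCA replicate 2 (0.052). Of 13 interferon genes 1 was lower (median −0.11; 0 to 2 over the alternatives), the tether Bst2 (−0.30 ± 0.09, adjusted p = 0.0474), a call lost without any 1 of the 4 libraries (0.275 and 0.188 without MePipHCA replicates 1 and 2, 0.234 and 0.102 without T0901317 replicates 1 and 2). Of 12 plasma proteins 1 was lower (median −0.13; 0 to 4 over the alternatives, 4 without T0901317 replicate 1), Ahsg or fetuin-A (−0.32 ± 0.08, adjusted p = 0.0165), lost without MePipHCA replicate 1 (0.0637) or 2 (0.15) or T0901317 replicate 2 (0.39).

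Cell cycle genes were lower in 4 of 11 cases, against 2.91% of all genes, with a median of −0.47. The count was 1 without MePipHCA replicate 1, MePipHCA replicate 2 or T0901317 replicate 1, 2 without T0901317 replicate 2 and 6 by DESeq2. Top2a, the topoisomerase of dividing cells, had 8.85 and 9.85 CPM with MePipHCA, 20.9 and 14.7 CPM with T0901317 and 21.0 and 23.6 CPM with vehicle (−0.93 ± 0.21, adjusted p = 0.00545). Mki67, the proliferation marker, stood at 11.9 and 10.4 CPM with MePipHCA and 21.8 and 18.1 CPM with T0901317 (−0.85 ± 0.20, adjusted p = 0.00712). The replication helicase subunit Mcm5 (−0.59 ± 0.16, adjusted p = 0.0238) and cyclin D1, Ccnd1 (−0.44 ± 0.12, adjusted p = 0.0181), were the others. Top2a lost its call without MePipHCA replicate 1 (0.0734) or T0901317 replicate 1 (0.152), and Mki67 without MePipHCA replicate 2 (0.124) or T0901317 replicate 1 (0.1). Mcm5 lost it without MePipHCA replicate 1 (0.221) or 2 (0.0804) or T0901317 replicate 1 (0.134) or 2 (0.0763).

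**Figure D4:**
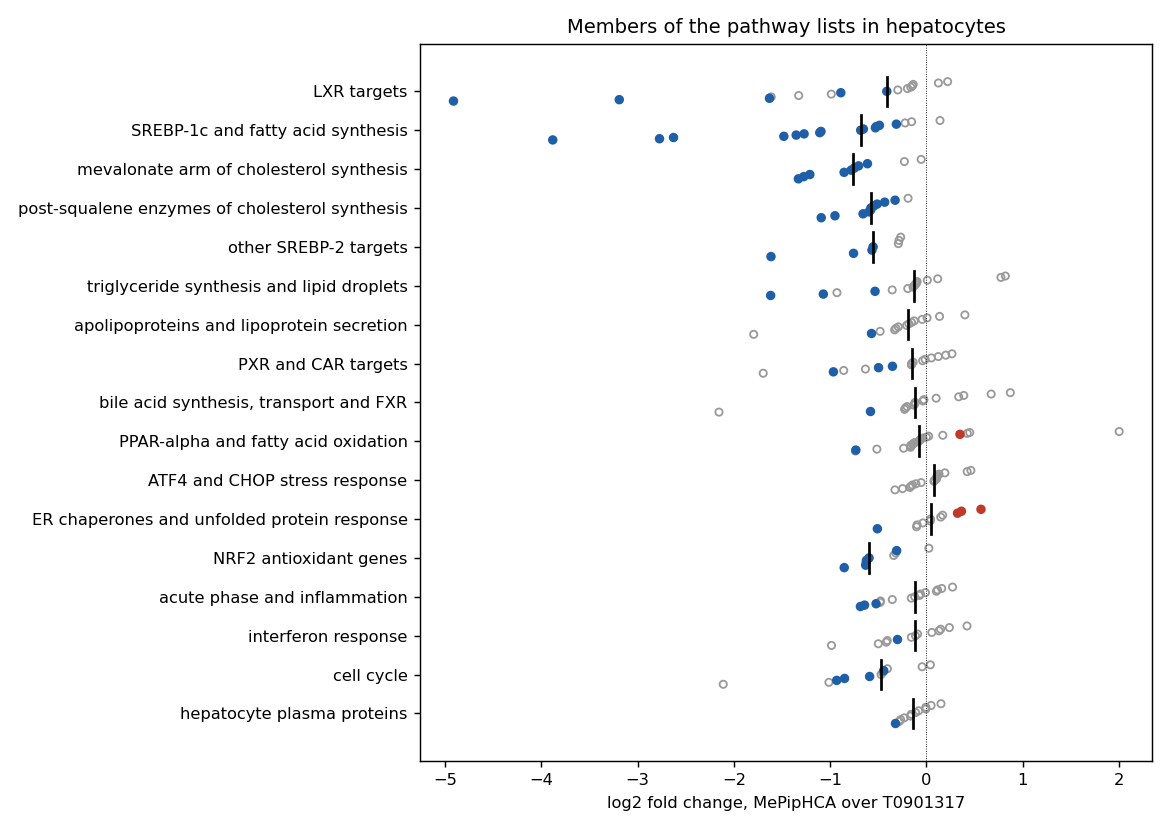
Log2 fold change of MePipHCA over T0901317 (x axis) of the tested members of each list (rows), with filled points for genes past the threshold (red higher, blue lower), open points for the rest and a bar at the list's median. Called members lie to the left of 0 in the lists of LXR targets, fatty acid and cholesterol synthesis, other SREBP-2 targets and NRF2, and called members to the right of 0 appear in the lists of PPAR-alpha and of endoplasmic reticulum chaperones.

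Beyond these lists, 10 genes with the largest higher values with MePipHCA were taken by rule. Inhba, a subunit of activin, had 105.5 and 128 CPM with MePipHCA, 37.2 and 41.9 CPM with T0901317 and 35.4 and 59.4 CPM with vehicle (1.57 ± 0.16, adjusted p = 8.77e-08). Fbln2, the matrix protein fibulin 2, stood at 167 and 195 CPM with MePipHCA, 57.4 and 70.2 CPM with T0901317 and 102 and 109 CPM with vehicle (1.51 ± 0.11, adjusted p = 4.71e-11). For Fbln2 vehicle libraries lay between those of the ligands. Fam83a, which acts in growth factor signalling, had 22.2 and 21.8 CPM with MePipHCA against 4.285 and 6.84 CPM with T0901317 (2.00 ± 0.23, adjusted p = 7.83e-07).

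Ltbp2, a matrix protein of the latent TGF-beta binding family (1.91 ± 0.37), Ckap4, a membrane protein of the endoplasmic reticulum (1.63 ± 0.29), Ccbe1, a secreted factor of lymphatic growth (2.84-fold), and Prg4 or lubricin (1.43 ± 0.19) were higher too, with adjusted p of at most 0.0012. Bmp2, a secreted growth factor (1.71 ± 0.43, adjusted p = 0.0133), lost its call without MePipHCA replicate 1 (0.126) or T0901317 replicate 2 (0.131). Scara5, a ferritin receptor (1.59 ± 0.48, adjusted p = 0.0457), lost it without MePipHCA replicate 2 (0.466) or T0901317 replicate 1 (0.2) or 2 (0.154). The transcript 2010003K11Rik (1.44 ± 0.41, adjusted p = 0.0313) lost it without MePipHCA replicate 1 (0.21) or 2 (0.0984), without T0901317 replicate 1 (0.132) or 2 (0.137). The stellate cell and fibroblast markers Col1a1 and Acta2 were at or below 0.331 CPM in the 4 libraries, and 1 of 9 such markers, Tagln, was tested (−0.11 ± 0.55). Among cholangiocyte markers Sox9 (85.2 and 81.5 CPM with MePipHCA, 48.7 and 52.9 CPM with T0901317) and Spp1 (365 and 379 CPM against 217 and 291 CPM) were higher, Krt19 was lower (−1.55 ± 0.36) and Cftr had 0 CPM. The 6 cholangiocyte markers summed to 455 and 466 CPM with MePipHCA, 275 and 360.2 CPM with T0901317 and 364 and 481 CPM with vehicle, and their part in these differences was not tested.

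Lower with MePipHCA, outside the lists, were Thbs1 and Paqr8. Thbs1, the matrix protein thrombospondin 1, stood at 26.1 and 33.5 CPM with MePipHCA, 118 and 124 CPM with T0901317 and 49.4 and 59.0 CPM with vehicle, a 4.02-fold difference between the ligands (−2.01 ± 0.14, adjusted p = 4.71e-11). Paqr8, a membrane receptor of progestins, had 5.87 and 4.08 CPM with MePipHCA, 21.1 and 18.2 CPM with T0901317 and 6.14 and 4.54 CPM with vehicle, a 4.01-fold difference between the ligands (adjusted p = 5.7e-06). GW3965 libraries had 16.6 and 16.3 CPM of Paqr8, above those of MePipHCA and vehicle as well. The transcript LOC102631757 had 3.06 and 4.45 CPM with MePipHCA, 13.3 and 10.2 CPM with T0901317 and 11.2 and 13.0 CPM with vehicle (−1.63 ± 0.30, adjusted p = 0.000843). Cdc20, an activator of the anaphase complex, was lower (−2.24 ± 0.50, adjusted p = 0.00494), a call lost without MePipHCA replicate 2 (0.114) or T0901317 replicate 1 (0.0608).

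Vehicle values show on which side the ligands' difference lay. MePipHCA against vehicle had 104 genes higher (0.789%) and 182 lower (1.38%), or 2.17% in all, and T0901317 against vehicle had 64 higher (0.486%) and 60 lower (0.455%), or 0.941% in all. These comparisons share the vehicle libraries. With MePipHCA against vehicle, 2 of 15 LXR targets were lower, Abca1 (−0.78 ± 0.09, adjusted p = 4.46e-06) and Apoc2, and with T0901317 against vehicle 4 were higher, Abca1 (2.40 ± 0.09), Abcg1 (4.44 ± 0.68), Lpcat3 (0.81 ± 0.08) and Lpl (1.83 ± 0.38). In fatty acid synthesis 5 of 17 genes were lower with MePipHCA (median −0.37) and 7 higher with T0901317 (median 0.29). Scd1 stood at −0.20 ± 0.07 with MePipHCA (adjusted p = 0.202) and 2.42 ± 0.08 with T0901317, and Scd2 at −1.78 ± 0.24 and 2.10 ± 0.20, both past the threshold. In the mevalonate arm 8 of 10 genes were lower with MePipHCA (median −0.79), and with T0901317 no gene passed (median 0.17). After squalene 8 of 11 were lower with MePipHCA (median −0.64), and 1 was higher and 2 lower with T0901317 (median −0.09). Insig1 passed on either side of vehicle, at −1.04 ± 0.10 with MePipHCA and 0.57 ± 0.10 with T0901317. The Lpl call with T0901317 was lost without T0901317 replicate 1 (0.0887) or vehicle replicate 2 (0.2).

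T0901317 against GW3965, the further synthetic agonist at the same dose, gave 0 calls of 13176 genes by edgeR and by DESeq2, while 667 genes had an unadjusted p below 0.05. Abca1 had 856 and 996 CPM with T0901317 and 809 and 846 CPM with GW3965 (0.16, adjusted p = 0.97), and Scd1 5480 and 6348 CPM with T0901317 and 5385 and 5486 CPM with GW3965 (0.12, adjusted p = 0.97). A p above the threshold does not show that these agonists act alike. Without the filter on low counts 4 genes were higher and 5 lower, Thbs1 and Fbln2 among them (each adjusted p = 0.00406).

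Macrophages gave the same comparison in libraries that share nothing with those of hepatocytes, at 4.01 to 11.45 M counts each. There 1390 genes were higher (12%) and 1605 lower (13.9%) with MePipHCA than with T0901317, or 25.9% of genes in all. Groups had 3 libraries there against 2 in hepatocytes, with 12 against 6 residual degrees of freedom. The common coefficient of biological variation was 0.055 against 0.106. Counts of calls in the cell types are thus not of equal power. Cell type cannot be told apart from culture medium or from the date that the titles carry. Of 10671 genes tested in both cell types 686 were called in hepatocytes and 2640 in macrophages, and the 303 called in both were 44.2% of the hepatocyte calls and 11.5% of the macrophage calls. Of these, 129 were lower and 115 higher in both, 31 were lower in hepatocytes and higher in macrophages, and 28 the reverse.

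The exporters separated the ligands in hepatocytes far more than in macrophages. Abca1 had 2802 ± 60.1 CPM with MePipHCA, 3079 ± 74.4 CPM with T0901317 and 153 ± 11.6 CPM with vehicle in macrophages (SD, n = 3), a difference between the ligands of −0.14 ± 0.05, against −3.19 ± 0.10 in hepatocytes. The interaction, the hepatocyte difference minus the macrophage difference in 1 fit of all 30 libraries, was −3.06 ± 0.10 (adjusted p = 6.02e-26). Without macrophage MePipHCA replicate 1 or 3, or T0901317 replicate 1 or 3, the macrophage call for Abca1 was lost (0.0921, 0.0899, 0.0997 and 0.0652). Abcg1 had 1727 ± 34.6 CPM with MePipHCA and 1765 ± 53.1 CPM with T0901317 in macrophages (SD, n = 3), which did not pass (−0.03 ± 0.05, adjusted p = 0.68), and its interaction was −4.83 ± 0.32 (adjusted p = 2.41e-15). The fit of all 30 libraries estimated the spread of each gene over both cell types. Its ± 0.32 for Abcg1, below the ± 0.66 of the hepatocyte fit, does not measure the hepatocyte spread alone. Srebf1 differed between the ligands in both cell types, by −1.48 ± 0.10 in hepatocytes and −1.71 ± 0.06 in macrophages, and its interaction did not pass (0.23 ± 0.12, adjusted p = 0.247).

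For transcripts of cholesterol synthesis enzymes the larger difference was in macrophages. Lss had 12.9 ± 2.29 CPM with MePipHCA and 72.6 ± 6.12 CPM with T0901317 in macrophages (SD, n = 3), a difference of −2.53 ± 0.12 against −1.09 ± 0.10 in hepatocytes (interaction 1.43 ± 0.17, adjusted p = 1.88e-08). Over all 13700 genes the interaction was positive for 721 (5.26%) and negative for 678 (4.95%). The 13700 include genes outside the 10671 tested in both cell types, which can be near 0 in 1 of them. Col1a2, at most 0.583 CPM in the 4 hepatocyte libraries compared, was called (6.21, adjusted p = 0.0148). The interaction was positive for 8 and negative for 1 of 10 genes of the mevalonate arm, and positive for 10 of 11 enzymes after squalene. In macrophages 9 of 10 and 11 of 11 of these genes were lower, with medians of −2.19 and −2.33, against 13.9% of all genes there. The stress lists separated the cell types as well. In macrophages 15 of 16 ATF4 and CHOP genes were higher with MePipHCA (median 1.51), against 12% of all genes there. Among them was the pseudokinase Trib3 (4.13), which stood at 0.19 ± 0.13 in hepatocytes. The interaction was negative for 14 of 17 genes of this list. Of 11 chaperone and unfolded protein genes 10 were higher in macrophages (median 0.97), beside the same 12%. Their interaction was negative for 9 and positive for 1, Xbp1.

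**Figure D5:**
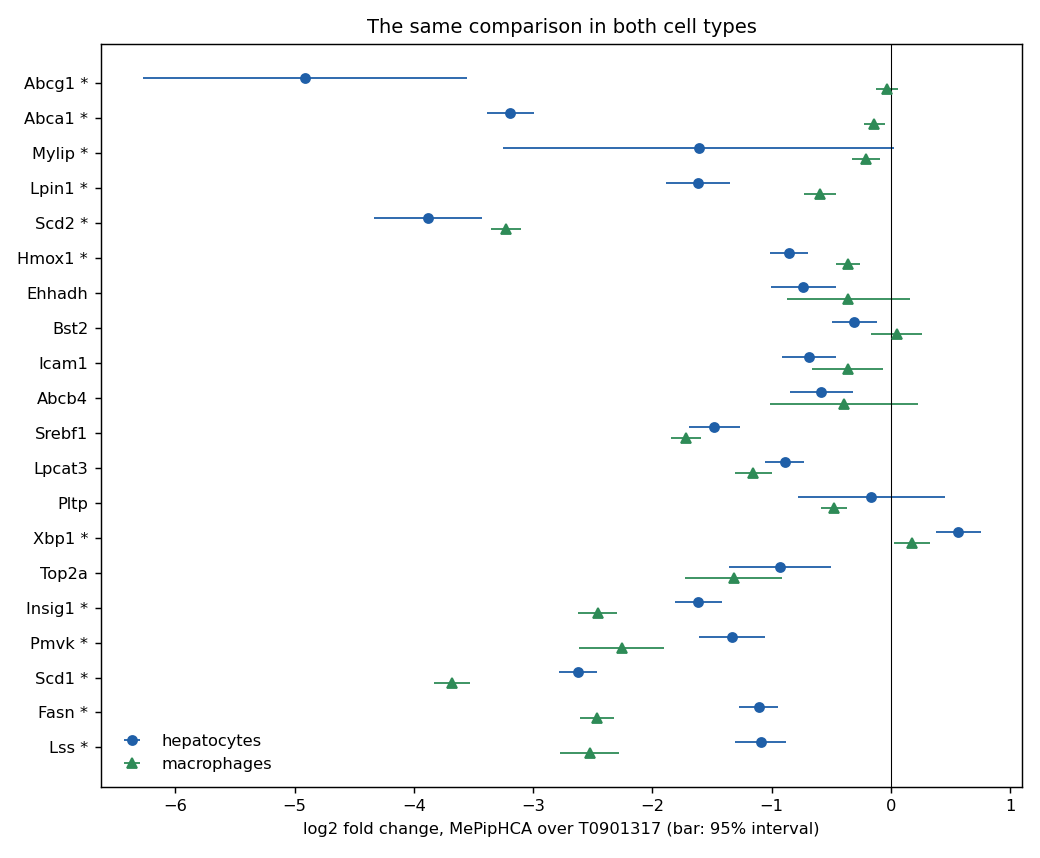
Log2 fold change of MePipHCA over T0901317 (x axis) with its 95% interval (bar) in hepatocytes (circles) and macrophages (triangles) for 20 named genes (rows), ordered by the interaction, where a star marks the 12 genes whose interaction passed the threshold. Abcg1 and Abca1 lie far below 0 in hepatocytes and near 0 in macrophages, and Lss, Fasn and Scd1 lie further below 0 in macrophages.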

How the data were processed

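Polyadenylated RNA of 30 libraries was sequenced, 12 from hepatocytes (2 per group, 6 groups) and 18 from macrophages (3 per group, 6 groups). Per the submitters' processing notes, STAR, HOMER and the genome build mm10 were used, with no versions given in the sources used here. The deposited count tables hold raw exon counts per gene, per the file headers, not pooled over replicates. The deposited RPKM table of hepatocytes holds the authors' values per length, per the file headers, and served only as a check of levels. No strand option is stated in those headers, and reads from genes that overlap on opposite strands cannot be told apart. Every column of the count tables matched the title of 1 sample.

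The test was edgeR's quasi-likelihood test (edgeR 4.0.16, R 4.3.3) after filterByExpr and TMM scaling, fitted with group means over all 12 hepatocyte libraries (13176 of 24453 genes, 6 residual degrees of freedom, common coefficient of biological variation 0.106), over 18 macrophage libraries (11544 genes) or over all 30 joined by symbol (13700 genes). Each p was adjusted over all genes of its comparison (Benjamini-Hochberg, threshold 0.05), the SE is the log2 fold change over the root of F, and intervals are at 95%. Code was tested on simulated data with 200 changed genes. Alternatives, run for the genes named by rule and the counts, were RLE factors, no filter, DESeq2 1.42.0, only the 4 libraries compared, a replicate block and each library left out.

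Some items are not reported here. Named genes were 10 fixed ones, up to 3 members per list with the largest difference past the threshold, and the 10 genes higher and 10 lower with the largest difference past the threshold, libraries apart and a mean of at least 5 CPM in a group. Macrophage values were given for the fixed genes and the first of each list, and also for Trib3, an example outside this rule. Further members of a list and genes without a call are given as examples chosen after their values were seen. Members and lists were chosen with earlier results of these data known, so lists have counts and medians and no test of their own. Promoters came from a RefSeq table that is not complete.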

Additional observations from a re-analysis of the deposited data

Results flagged for a closer look

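For 12 of 23 genes in which it was asked, the difference between MePipHCA and T0901317 itself differed between hepatocytes and macrophages. This was read from the interaction in edgeR's fit of all 30 libraries, which passed for 10.2% of all 13700 genes. The genes asked were fixed ones and the first of each list, picked for its large hepatocyte difference in these same libraries. Their count is therefore not that of a neutral set. Values are the hepatocyte log2 fold change of MePipHCA over T0901317 minus the macrophage one. The difference was more negative in hepatocytes for Abcg1 (−4.83), Abca1 (−3.06), Mylip (−1.24), Lpin1 (−1.03), Scd2 (−0.66) and Hmox1 (−0.50). It was more negative in macrophages for Lss (1.43), Fasn (1.35), Scd1 (1.05), Pmvk (0.93) and Insig1 (0.84). Xbp1 was more positive in hepatocytes (0.39). The Mylip call was lost without hepatocyte MePipHCA replicate 1 (adjusted p = 0.252) or T0901317 replicate 2 (0.497), and the Scd2 call without hepatocyte MePipHCA replicate 2 (0.403) or T0901317 replicate 2 (0.155). Xbp1 lost its call without hepatocyte MePipHCA replicate 1 (0.162), hepatocyte T0901317 replicate 1 (0.118), macrophage MePipHCA replicate 1 (0.0872) or 2 (0.0541), or macrophage T0901317 replicate 2 (0.0597). In the fit of all 30 libraries the spread of a gene was shared by both cell types. The SE of the interaction was 0.32 for Abcg1 and 0.36 for Mylip, below the 0.66 and 0.80 of the hepatocyte fit. That SE does not measure the hepatocyte spread alone. Cell type, medium and date cannot be told apart here.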

How the results depend on the processing

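No result changed sign where it was called. Among 55 named genes called between MePipHCA and T0901317 in hepatocytes, all kept their sign and 33 kept their call under every alternative that gave a value, at most 9 a gene, while 22 lost it in at least 1, mostly with a library left out, where the lone sample is assumed to vary like the other groups. Counts of genes higher and lower with 1 library left out ranged over 133 to 226 and 165 to 256 for MePipHCA against T0901317 in hepatocytes, 37 to 61 and 77 to 146 for MePipHCA against vehicle, 28 to 60 and 15 to 47 for T0901317 against vehicle, 1164 to 1250 and 1232 to 1443 in macrophages, 513 to 666 and 471 to 639 for the interaction, and 0 for T0901317 against GW3965. Without the filter on low counts, MePipHCA against vehicle had 158 genes higher, T0901317 against vehicle 115 higher and 141 lower, and T0901317 against GW3965 had 4 higher and 5 lower. DESeq2 gave 116 higher and 136 lower for T0901317 against vehicle, and a fit of only the 4 libraries gave 198 higher and 292 lower for MePipHCA against vehicle. The cause was not tested. Replicate numbers did not pair the samples (correlation of deviations 0.0279 between MePipHCA and T0901317, and over 0.1 in 0 of 15 pairs of hepatocyte groups), and with the replicate block there were 447 genes higher and 435 lower, against 414 and 383 without it. Counts of called members moved with the alternatives for LXR targets, fatty acid synthesis, enzymes after squalene, other SREBP-2 targets and NRF2 genes. No member of these lists was called higher in any of them. The count of the mevalonate arm did not move. Genes at a few counts, such as Abcg1 with MePipHCA and Mylip, are limited by depth.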

Other observations

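The remaining hepatocyte groups, DMHCA at 1 uM and desmosterol at 10 uM, were set against no group here, and their levels are given as values. Their libraries did enter the filter, the scaling and the spread of the fits over all 12 hepatocyte libraries. Abca1 had 166 and 163 CPM with DMHCA and 201 and 204 CPM with desmosterol. Scd1 had 1071 and 1180 CPM with DMHCA and 1138 and 1053 CPM with desmosterol. Lss, the cyclase of cholesterol synthesis, had 114 and 106 CPM with DMHCA and 83.0 and 77.6 CPM with desmosterol, and Insig1 had 126 and 124.5 CPM with DMHCA and 87.4 and 98.8 CPM with desmosterol. Hmox1 had 984 and 851 CPM with DMHCA and 544.5 and 561 CPM with desmosterol. Inhba, the activin subunit, had 52.6 and 43.7 CPM with DMHCA and 40.6 and 44.0 CPM with desmosterol.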
